A study of Mus musculus with 12 samples.

Results

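The core circadian clock genes of the uterus were followed over the estrous cycle of the mouse. The 10 genes are a list of names from the clock, with no threshold on their values: the activators Arntl (also called Bmal1) and Clock, the repressors Per1, Per2, Per3, Cry1 and Cry2, the nuclear receptors Nr1d1 and Nr1d2, and the output gene Dbp. They are 10 of the 35896 genes to which the deposited transcripts were matched, and 9 of them, all but Per2, were among the 12052 genes with enough counts to be tested. The samples were whole uteri of wild-type female Swiss Webster mice, an outbred stock, aged 8 to 12 weeks. No treatment is labelled, and there were 3 uteri each in proestrus, estrus, metestrus and diestrus, the order in which the cycle runs. Samples are named by stage and replicate number, which were 1 to 3 in proestrus, 3 to 5 in estrus and in diestrus, and 5 to 7 in metestrus. How the stage of a mouse was determined, the hour at which it was dissected and whether each sample came from its own mouse are not given in the sources used here.

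The clock is a transcriptional loop that runs in nearly every mammalian cell with a period of about a day. ARNTL and CLOCK form a pair that binds E-box sequences and switches on the Per and Cry genes, whose proteins return to the nucleus and block that pair. In a second loop the same pair drives Nr1d1, Nr1d2 and Dbp: the NR1D receptors repress Arntl through ROR response elements, and DBP activates genes with D-box sequences, so that Arntl and Dbp are known to peak at opposite times of day in many tissues. The uterus has such a clock of its own, and in whole organs its transcript levels depend on the hour of sampling.

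These sequences are short stretches of RefSeq promoter windows (GRCm38.p6, from 250 bases before to 50 bases after a gene's start), shown because they hold the elements through which the members of the loop are known to regulate one another. Capitals mark the element, and positions are counted from the RefSeq start of the transcript, which is 0.
Cry1, E-box at position -60, chr10:85185100-85185123, minus strand: gccggtggtCACGTGgggtgcatg
Per1, E-box at position -166, chr11:69098774-69098797, plus strand: acccaagtcCACGTGcagggatgt
Per3, D-box at position -205, chr4:151044854-151044879, minus strand: acccgcgcgTTATGTAAggtactcgg
Per3, D-box at position -158, chr4:151044807-151044832, minus strand: cgcccgcggTTATGTAAcccccgccg
Arntl, ROR response element at position 26, chr7:113207528-113207556, plus strand: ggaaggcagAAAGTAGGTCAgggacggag
The windows of 9 members were found, 13 in all, and Per2 had none. The E-box CACGTG, which reads the same on both strands, lay in windows of Cry1 and Per1 and in 7.15% of all 32851 windows. The D-box, searched on both strands as TTATGTAA, TTACATAA or TTACGTAA, lay only in the window of Per3 among the members and in 1.06% of all windows. The ROR response element lay only in the window of Arntl and in 0.384% of all windows. The Per1 element shown lies near the start (69098948) of an annotated transcript that was given 0 counts in these libraries. The transcript with 96.3% of the Per1 counts starts at 69100522, outside the window shown. A match describes the sequence and does not show that a factor was bound there in these uteri.

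RNA was profiled with 3' TagSeq, which sequences fragments close to the poly(A) tail. Each library held between 1652841 and 2200563 estimated counts, and values are given in CPM, each gene's counts relative to the library's counts in tested genes, scaled between libraries and multiplied up to the usual CPM size. A count of 3, the limit that a count of 0 allows, stood at 1.37 to 1.89 CPM depending on the library, for counting error only. Depth therefore sets how much can be said of each member: libraries held 71 to 129 counts of Clock, 50 to 102 of Nr1d2, 21 to 82 of Nr1d1 and 19 to 95 of Dbp, but only 6 to 22 of Arntl, 4 to 21 of Cry1 and 1 to 11 of Per2. All 10 genes of a uterine identity list were tested, with Hoxa10 at 91.6 CPM or more, Pgr at 71.5 or more and Esr1 at 203 or more in every library. Of the marker lists of neighbouring tissues, 8 ovary genes summed to 13.5 to 29.7 CPM and 7 fat cell genes to 0.989 to 21.3. The 6 ciliated oviduct genes summed to 50.9 to 63.1 CPM in estrus and 14.0 to 35.9 elsewhere, which followed Ovgp1 (means of 44.8 in estrus and 14.4 to 17.7 elsewhere), while only Rsph1 of the other 5 also had its highest mean in estrus. The 6 skeletal muscle genes, with Myh4 at 0 throughout, summed to 129 to 199 CPM in diestrus and 36.4 to 124 elsewhere, mostly from Acta1 (mean of 122 in diestrus), and their part in the diestrus values was not tested. The 3 metestrus libraries were less alike (r of log2 CPM 0.897 to 0.910) than those of the other stages (0.939 to 0.957).

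Over the cycle as a whole, 1 of the 9 tested clock genes differed between stages, against 23.2% of all tested genes. That gene was Nr1d1 (F test of edgeR's quasi-likelihood fit, p adjusted by Benjamini-Hochberg over all tested genes = 0.0281). The adjusted p of the other 8 lay between 0.108 for Dbp and 0.459 for Nr1d2. Between pairs of stages, 1 member was called in estrus against proestrus (background 17.1% of all tested genes, 9.67% higher and 7.46% lower in estrus), and it was higher in estrus. Another 2 calls, both lower in diestrus, were made in diestrus against estrus (22.8% of all tested genes, 9.72% higher and 13.0% lower in diestrus). None was called in metestrus against estrus (7.56%), diestrus against metestrus (0.224%), proestrus against diestrus (8.53%) or metestrus against proestrus (4.31%), with edgeR or with DESeq2. Unadjusted p-values under 0.05 were given by edgeR to 4 members in the first of these (Clock, Per1, Nr1d1 and Dbp). They were given to 0 in the second and to 1 (Arntl) in each of the last pair. The percentages above are shares at the adjusted threshold. No share of all tested genes was taken at the unadjusted threshold, so these counts cannot be set against a background. With the scaling used here, samples of metestrus and estrus did not overlap for 5 of the 9 tested members, against 25.4% of all tested genes. These members were Arntl, Clock, Per3, Cry2 and Nr1d1. In estrus against proestrus Nr1d1 alone did not overlap, against 39.0% of all tested genes. In diestrus against estrus Arntl, Clock, Cry1 and Nr1d1 did not overlap, against 43.0%. The comparisons share samples and so are not independent of one another.

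**Figure D1:**
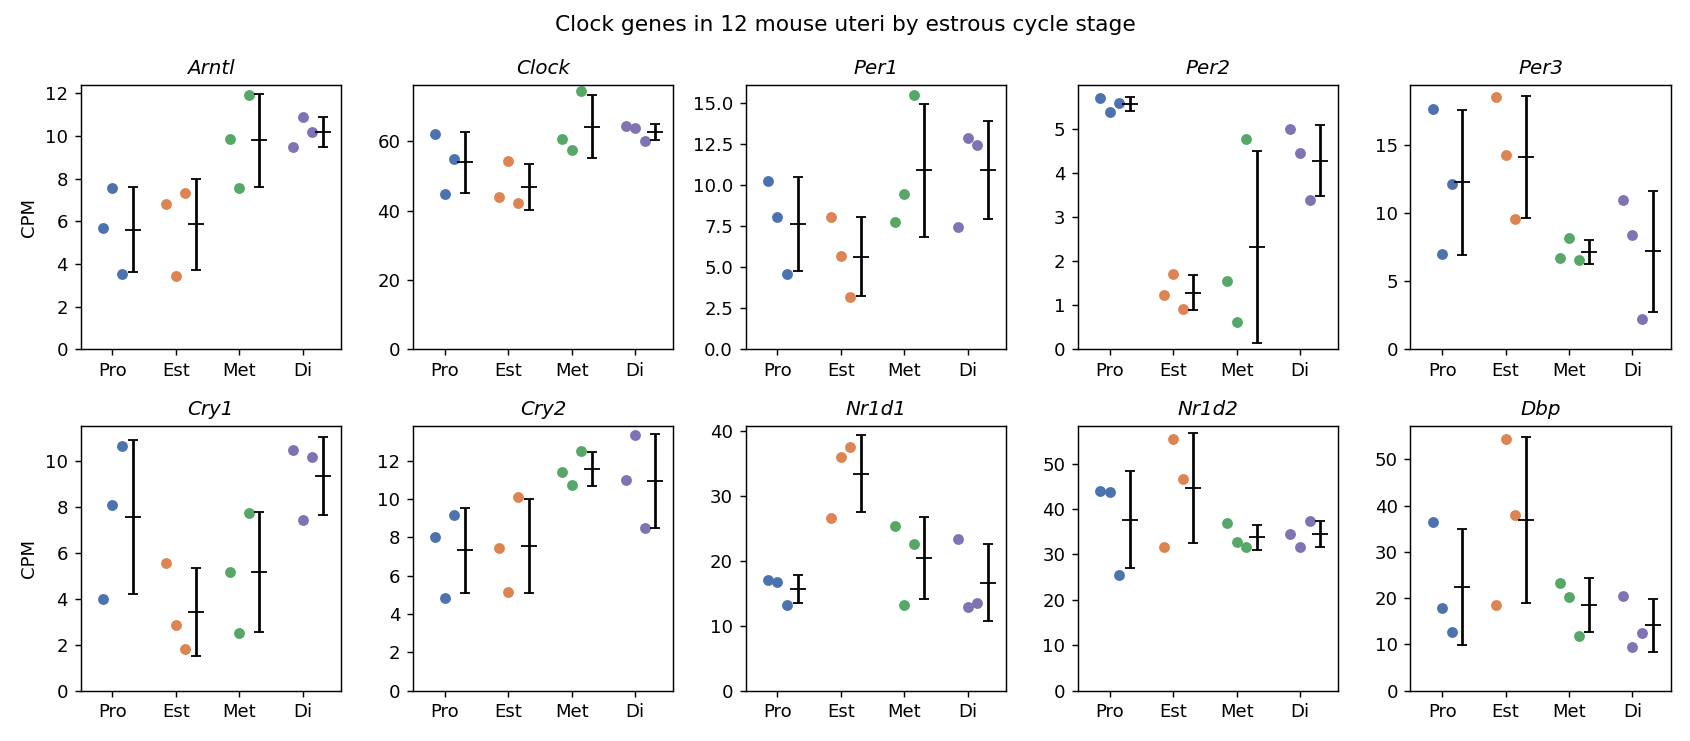
CPM of the 10 clock genes in each of the 12 samples (points) by stage (Pro, proestrus; Est, estrus; Met, metestrus; Di, diestrus), with the mean and SD of the 3 samples as bars. Estrus samples of Nr1d1 lie above all others. Per2 has its lowest mean in estrus, though its lowest single sample, at 0.631 CPM, is metestrus replicate 6. With the scaling used here, Arntl is higher in every metestrus and diestrus sample than in any proestrus or estrus sample. The closest pair stands at 7.57 and 7.55 CPM, and the order does not hold with library totals.

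The activator genes were higher on average in metestrus and diestrus than in proestrus and estrus, by less than the test could call. Arntl (ENSMUSG00000055116, chromosome 7, 113207465 to 113314126, plus strand, GRCm38) encodes the part of the activator pair without which the loop stops. It stood at 5.70, 7.55 and 3.55 CPM in proestrus replicates 1 to 3 and at 6.80, 3.43 and 7.33 in estrus replicates 3 to 5. In metestrus replicates 5 to 7 it stood at 9.85, 7.57 and 11.9 CPM, and in diestrus replicates 3 to 5 at 9.47, 10.9 and 10.2. The stage means were 5.60 ± 2.00, 5.85 ± 2.11, 9.78 ± 2.18 and 10.2 ± 0.702 CPM (SD, n = 3), so that proestrus and estrus were alike within their spread and so were metestrus and diestrus. With the scaling used here, all 6 samples of metestrus and diestrus lay above all 6 of proestrus and estrus. The same order held for 1.34% of tested genes, and the closest pair of Arntl values stood at 7.57 and 7.55 CPM. That order did not hold with library totals, where metestrus replicate 6 (12 Arntl counts in 1641185) lay below proestrus replicate 2 (14 in 1881338). The F test did not call Arntl (edgeR adjusted p = 0.152). A contrast of metestrus plus diestrus against proestrus plus estrus, added after the values had been seen, gave a log2 difference of 0.79 ± 0.26 (SE; 95% interval 0.23 to 1.35; edgeR adjusted p = 0.0590), and it called 0 of the 9 members against 14.0% of all tested genes. At an unadjusted p under 0.05 that edgeR contrast held 6 of the 9. Arntl, Clock, Per1 and Cry2 had higher values in metestrus and diestrus, and Per3 and Dbp lower ones. The share of all tested genes at the unadjusted threshold was not taken, so the count of 6 cannot be set against a background.

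Clock (ENSMUSG00000029238, chromosome 5, 76209868 to 76304792, minus strand), the partner of ARNTL, had the deepest counts among the members and the smallest spread between replicates. It measured 62.2, 44.7 and 54.8 CPM in proestrus, 43.9, 54.3 and 42.1 in estrus, 60.7, 57.4 and 74.5 in metestrus and 64.3, 63.8 and 60.0 in diestrus. All diestrus and all metestrus samples lay above all estrus samples, while those of proestrus overlapped with every other stage. Samples did not overlap for 43.0% of tested genes in diestrus against estrus and for 25.4% in metestrus against estrus. Diestrus exceeded estrus by 0.42 ± 0.16 on the log2 scale (SE; 95% interval 0.08 to 0.77), a 1.34-fold difference that missed the threshold (edgeR adjusted p = 0.0741). Metestrus exceeded estrus by a log2 difference of 0.46 ± 0.16 (edgeR adjusted p = 0.102). The call in diestrus against estrus appeared with library totals in place of scaling factors, in the fit to these 6 samples alone, without metestrus replicate 7 and without estrus replicate 4.

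In whole-organ RNA, a lower level can come from fewer cells that carry the transcript or from less of it per cell, and the data cannot tell these apart. The summed level of 8 epithelial markers, of which none was at 0 throughout and 6 had lower means in both metestrus and diestrus than in both other stages, was 1426 to 1880 CPM in proestrus and 1566 to 1831 in estrus, but 605 to 1110 in metestrus and 654 to 790 in diestrus. With the scaling used here it therefore split the samples in the same way as Arntl, in the opposite direction. Its part in the Arntl and Clock values was not tested.

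Among the Per genes, Per1 (ENSMUSG00000020893, chromosome 11, 69095217 to 69109960, plus strand) encodes a repressor that is also known to respond quickly to light, stress hormones and other acute signals. Its values were 10.3, 8.09 and 4.57 CPM in proestrus, 8.04, 5.72 and 3.21 in estrus, 7.78, 9.47 and 15.5 in metestrus and 7.48, 12.9 and 12.5 in diestrus. The stages overlapped, and the F test made no call (edgeR adjusted p = 0.242). Diestrus stood 0.97 ± 0.43 above estrus on the log2 scale (95% interval 0.05 to 1.90; edgeR adjusted p = 0.121). The highest value, in metestrus replicate 7, came from a library in which some glucocorticoid-responsive genes were also at their highest, as described below.

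Per2 (ENSMUSG00000055866, chromosome 1, 91415982 to 91459324, minus strand), a repressor whose loss shortens or abolishes rhythms in mice, was too scarce for the main test, with 75 counts in all 12 libraries. Counts were 10, 10 and 11 in proestrus, 2, 3 and 2 in estrus, 3, 1 and 8 in metestrus and 10, 9 and 6 in diestrus. Every estrus library was at or under 3 counts, and all proestrus and diestrus libraries were above. Over the pooled libraries of a stage, the ratio of proestrus to estrus was 4.40 (31 against 7 counts; exact binomial 95% interval 1.90 to 11.9). The ratio of diestrus to estrus was 3.42 (25 against 7 counts; 1.44 to 9.36). These intervals cover counting error only and not the spread between samples. When every gene with a count was kept in the fit, the difference between estrus and proestrus passed (edgeR adjusted p = 0.0409), and with DESeq2 it did not (adjusted p = 0.0615). In fits without 1 library in which Per2 was tested, its adjusted p in that comparison ran from 0.0131 without metestrus replicate 7 to 0.114 without estrus replicate 5. Metestrus replicate 7, with 8 counts, stood apart from the other 2 metestrus libraries, and without it the log2 difference between metestrus and estrus was -0.13 in place of 0.86 with all genes kept.

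Per3 (ENSMUSG00000028957, chromosome 4, 151003652 to 151044665, minus strand), a paralog with a smaller part in the loop, had higher means in proestrus and estrus than in metestrus and diestrus, with no call. It averaged 12.3 ± 5.34 CPM in proestrus and 14.2 ± 4.47 in estrus against 7.17 ± 0.903 in metestrus and 7.21 ± 4.47 in diestrus (SD, n = 3; F test, edgeR adjusted p = 0.240). Diestrus replicate 5 was the lowest of all samples, at 2.26 CPM and 4 counts, and estrus replicate 3 the highest, at 18.6 CPM. The 95% interval of the difference between metestrus and estrus ran from -1.97 to 0.04 on the log2 scale and so covers both a large fall and no difference. An annotated retained-intron transcript held 23.5% of the counts of Per3. The gene lies within the locus of Camta1 and shares no exon bases with it.

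The Cry genes encode the stronger repressors of the activator pair. Cry1 (ENSMUSG00000020038, chromosome 10, 85131700 to 85185064, minus strand), whose promoter holds the E-box shown above, was lowest in estrus. Values were 3.99, 8.09 and 10.7 CPM in proestrus, 5.57, 2.86 and 1.83 in estrus, 5.19, 2.52 and 7.75 in metestrus and 10.5, 7.41 and 10.2 in diestrus. All 3 diestrus samples lay above all 3 estrus samples, as for 43.0% of tested genes, while proestrus overlapped with both. The difference between diestrus and estrus was 1.48 ± 0.51 on the log2 scale (SE; 95% interval 0.39 to 2.57), or 2.79-fold, and just missed the threshold (edgeR adjusted p = 0.0508). It was called in the fit to the 6 samples of the pair, with library totals, with all genes kept, and in the fits without proestrus replicate 1, estrus replicate 3, metestrus replicate 6 or metestrus replicate 7. Cry2 (ENSMUSG00000068742, chromosome 2, 92403646 to 92434043, minus strand) averaged 7.32 ± 2.22, 7.55 ± 2.47, 11.6 ± 0.903 and 10.9 ± 2.43 CPM over the 4 stages (F test, edgeR adjusted p = 0.283). Like Arntl it had higher means in metestrus and diestrus than in proestrus and estrus. Its metestrus samples (10.7 to 12.5 CPM) lay above those of estrus (5.15 to 10.1), as samples did not overlap for 25.4% of tested genes. Its diestrus samples (8.49 to 13.3 CPM) overlapped with those of proestrus and of estrus.

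**Figure D2:**
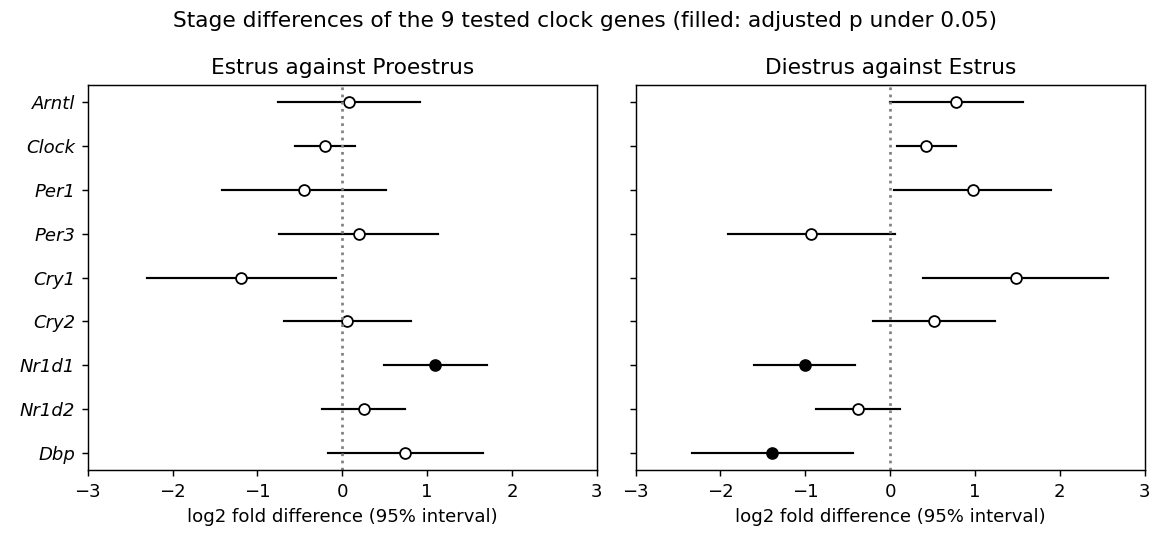
Log2 differences with 95% intervals of the 9 tested clock genes for estrus against proestrus and for diestrus against estrus, with filled points where the edgeR adjusted p is under 0.05. Nr1d1 is filled on both sides, at 1.10 and -1.01, and Dbp in diestrus against estrus, at -1.39, while Cry1 lies at 1.48 there without passing the threshold.

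Nr1d1 (ENSMUSG00000020889, chromosome 11, 98767932 to 98775333, minus strand) encodes the receptor REV-ERBα, the main repressor of Arntl, and was the 1 member that differed over the cycle. It stood at 17.1, 16.7 and 13.2 CPM in proestrus, 26.6, 36.0 and 37.6 in estrus, 25.4, 13.3 and 22.7 in metestrus and 23.4, 12.9 and 13.6 in diestrus. The 3 estrus samples were the highest of all 12. From proestrus to estrus Nr1d1 rose 2.14-fold, from 15.7 ± 2.16 to 33.4 ± 5.93 CPM (SD, n = 3; log2 difference 1.10 ± 0.28 SE, 95% interval 0.49 to 1.70; edgeR adjusted p = 0.0176). In diestrus, at 16.6 ± 5.91 CPM, it was lower than in estrus by a log2 difference of -1.01 ± 0.28 (95% interval -1.60 to -0.41; edgeR adjusted p = 0.0189). Neither pair of stages overlapped, as was so for 39.0% of tested genes in the first comparison and 43.0% in the second. Metestrus lay between, at 20.4 ± 6.37 CPM, with a log2 difference from estrus of -0.70 ± 0.27 that was not called (edgeR adjusted p = 0.136). Macrophage markers were also highest in estrus in sum: the 8 genes, none at 0 throughout and 6 of them with their highest mean in estrus, summed to 667 to 728 CPM there, against 252 to 322 in proestrus, 362 to 563 in metestrus and 348 to 440 in diestrus. Of 8 smooth muscle markers, 6 also had their highest mean in estrus, where they summed to 8736 to 11207 CPM, which overlapped with proestrus (6488 to 9140). The part of macrophages or smooth muscle in the Nr1d1 values was not tested.

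The call of Nr1d1 over the 4 stages was lost under several alternatives. When estrus replicate 4 or 5 was left out, its adjusted p in the F test was 0.122 and 0.135 (edgeR). It was 0.0612 and 0.0512 when proestrus replicate 3 or 2 was left out, and 0.0510 and 0.0505 for diestrus replicate 4 or 5. With counts scaled from TPM it was 0.0507. The rise from proestrus to estrus was not called without proestrus replicate 3 (adjusted p = 0.0781), estrus replicate 4 (0.0662) or estrus replicate 5 (0.0732). The difference between diestrus and estrus was not called without estrus replicate 4 (0.0710), estrus replicate 5 (0.0781), diestrus replicate 4 (0.0861) or diestrus replicate 5 (0.0737). Both contrasts kept their direction in these fits.

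The 3' end of Nr1d1 overlaps that of Thra, the gene of thyroid hormone receptor alpha, on the other strand (chromosome 11, 98740638 to 98769006). The exons of both genes share 263 bases, from 98768157 to 98768419, and 7.85% of the 31-base words of the Nr1d1 transcripts occur in Thra in reverse complement. Within the only Nr1d1 transcript with counts, the shared stretch begins 225 bases from the 3' end. The Thra transcript that reaches it held 83.2% of the counts of Thra. Whether the authors' counting used strand is not given in the sources used here, so reads of the shared stretch may have been divided between the genes, and the values of Nr1d1 are uncertain to that extent. Thra itself measured 92.7 ± 8.26, 121 ± 5.96, 117 ± 21.2 and 118 ± 20.2 CPM (F test, edgeR adjusted p = 0.221). In estrus against proestrus, its samples were all higher (114 to 126 against 85.2 to 102 CPM), as those of Nr1d1 were, with a log2 difference of 0.38 ± 0.16 (95% interval 0.04 to 0.72) that was not called (edgeR adjusted p = 0.117). In diestrus against estrus its log2 difference was -0.03 ± 0.16. How far shared reads enter the Nr1d1 values was not tested.

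**Figure D3:**
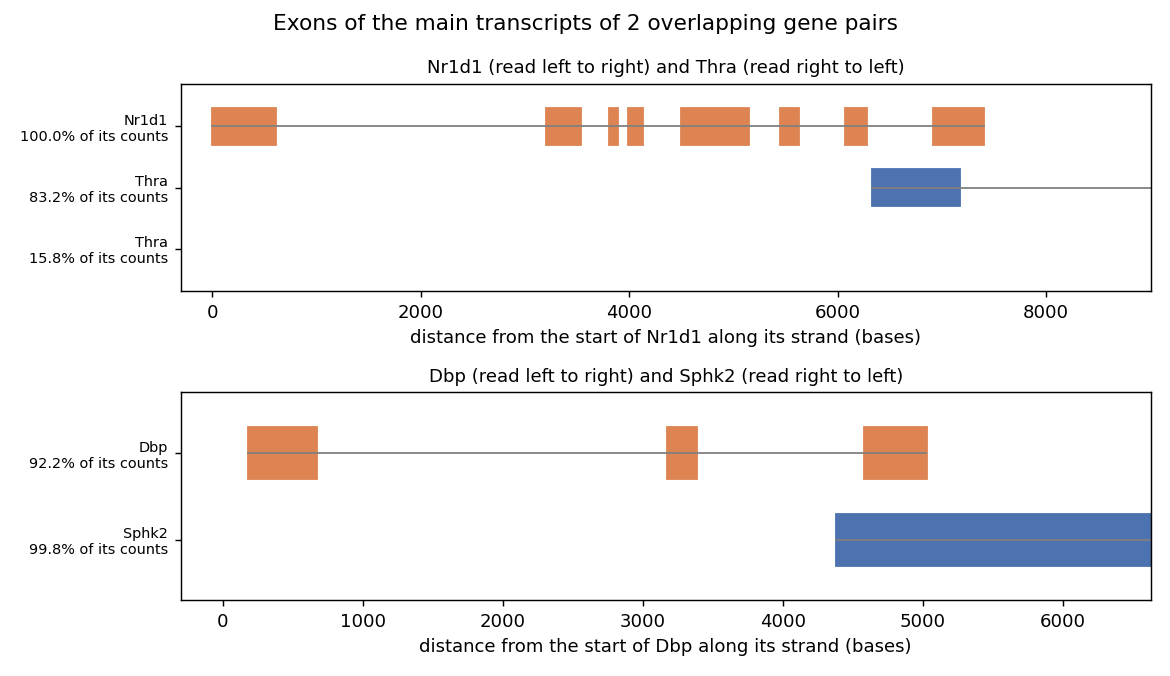
Exons (boxes) of the main transcripts of Nr1d1 and Thra and of Dbp and Sphk2, against the distance in bases from the start of Nr1d1 or Dbp, with the share of each gene's counts held by each transcript. The last exons of Thra and of Sphk2 run into the last exons of Nr1d1 and Dbp from the other side, and the Thra transcript with 15.8% of the counts ends outside the range shown.

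Nr1d2 (ENSMUSG00000021775, chromosome 14, 18204054 to 18239127, minus strand), which encodes the related receptor REV-ERBβ, showed no called difference. It averaged 37.7 ± 10.6, 44.6 ± 12.1, 33.7 ± 2.73 and 34.5 ± 2.86 CPM, with single samples from 25.4 in proestrus replicate 3 to 55.5 in estrus replicate 4 (F test, edgeR adjusted p = 0.459). The log2 difference between estrus and proestrus was 0.25, with a 95% interval from -0.24 to 0.74. That interval overlaps the interval of Nr1d1, and whether the paralogs differed in this step was not tested.

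Dbp (ENSMUSG00000059824, chromosome 7, 45705088 to 45710203, plus strand) encodes a transcription factor that passes the rhythm on to metabolic genes and has one of the largest daily swings known in many tissues. It was also the member with the largest spread within stages, a fitted biological coefficient of variation of 35.4% against 20.6% for all genes. Proestrus samples measured 36.5, 17.8 and 12.7 CPM, estrus 18.6, 54.3 and 38.0, metestrus 23.3, 20.2 and 11.9, and diestrus 20.4, 9.39 and 12.5. Within proestrus and within estrus the highest sample thus stood well over the lowest, and every stage overlapped with every other. Dbp was lower in diestrus (14.1 ± 5.70 CPM) than in estrus (37.0 ± 17.9), by a log2 difference of -1.39 ± 0.44 (SE; 95% interval -2.34 to -0.44; edgeR adjusted p = 0.0363). The F test over all stages made no call (edgeR adjusted p = 0.108).

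That difference of Dbp depended on several libraries and on the scaling. Its adjusted p was 0.177 without estrus replicate 4, where the log2 difference was -0.98, 0.0920 without estrus replicate 5, 0.134 without diestrus replicate 4, 0.105 without diestrus replicate 5 and 0.0529 with library totals (edgeR). Dbp also ends against a gene on the other strand, Sphk2, a sphingosine kinase gene, which was singled out here after its values had been seen. The exons of both share 539 bases, from 45709665 to 45710203, and the Dbp transcript with 92.2% of the counts has its last 450 of 1156 bases in that stretch. The 3' end of that Dbp transcript, where this method reads, thus lies within Sphk2. Sphk2 measured 66.7 ± 16.2, 80.9 ± 6.80, 61.4 ± 6.94 and 65.2 ± 12.6 CPM (F test, edgeR adjusted p = 0.337), and how reads were divided between the genes was not tested.

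The members were also compared with one another over the 12 samples, since genes of opposite phase are known to move in opposite directions when the hour of sampling varies. Of the 45 pairs, 9 had a permutation p under 0.05 for Pearson's r. After Benjamini-Hochberg adjustment over the 45, 0 pairs were under 0.05, for Pearson's r and for Spearman's rho. The pair with the smallest p for Pearson's r was Nr1d2 and Dbp, both known to be driven by the activator pair. It had r = 0.810 (permutation p = 0.00142, adjusted 0.0639) and rho = 0.692 (permutation p = 0.0155, adjusted 0.134). It held within stages, with r = 0.781 for deviations from the stage means, and r was 0.705 without the 2 samples farthest from the median of Nr1d2. The scatter of Nr1d2 among replicates of a stage therefore went with that of Dbp: estrus replicate 4 was the highest of all samples in both. For Spearman's rho the smallest p was that of Arntl and Per3, with rho = -0.790 (permutation p = 0.00327, adjusted 0.134). Arntl and Per3 had r = -0.606 (permutation p = 0.0379, adjusted 0.203), and -0.257 within stages.

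Cry1 ran against Dbp, with r = -0.748 (permutation p = 0.00534, adjusted 0.101), rho = -0.636 (permutation p = 0.0297, adjusted 0.134) and r = -0.637 within stages, and r was -0.814 without the 2 farthest samples. Per2 and Cry1 went together, with r = 0.752 (permutation p = 0.00675, adjusted 0.101), rho = 0.643 (permutation p = 0.0279, adjusted 0.134) and 0.547 within stages, though r was 0.538 without the 2 farthest samples. Nr1d1 and Dbp had r = 0.697 (permutation p = 0.0128, adjusted 0.144) and rho = 0.720 (permutation p = 0.0104, adjusted 0.134), and 0.525 within stages, but 0.368 without the 2 farthest samples, so that this relation rests largely on those. Arntl and Nr1d1, a target and its repressor, had r = -0.162 (permutation p = 0.614, adjusted 0.691) and rho = -0.301 (permutation p = 0.343, adjusted 0.532). Arntl and Dbp had r = -0.530 (permutation p = 0.0761, adjusted 0.245), rho = -0.622 (permutation p = 0.0353, adjusted 0.144) and -0.277 within stages, and r was -0.755 without the 2 farthest samples. The remaining pairs with a permutation p under 0.05 for Pearson's r had adjusted values of 0.148 to 0.203. They were Clock and Per1 (r = 0.677), Arntl and Per1 (0.630), Arntl and Cry2 (0.607), Arntl and Per3 (-0.606), and Cry2 and Nr1d2 (-0.583). All pairs share libraries, and the low counts of Arntl, Per2 and Cry1 add counting noise to their values.

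**Figure D4:**
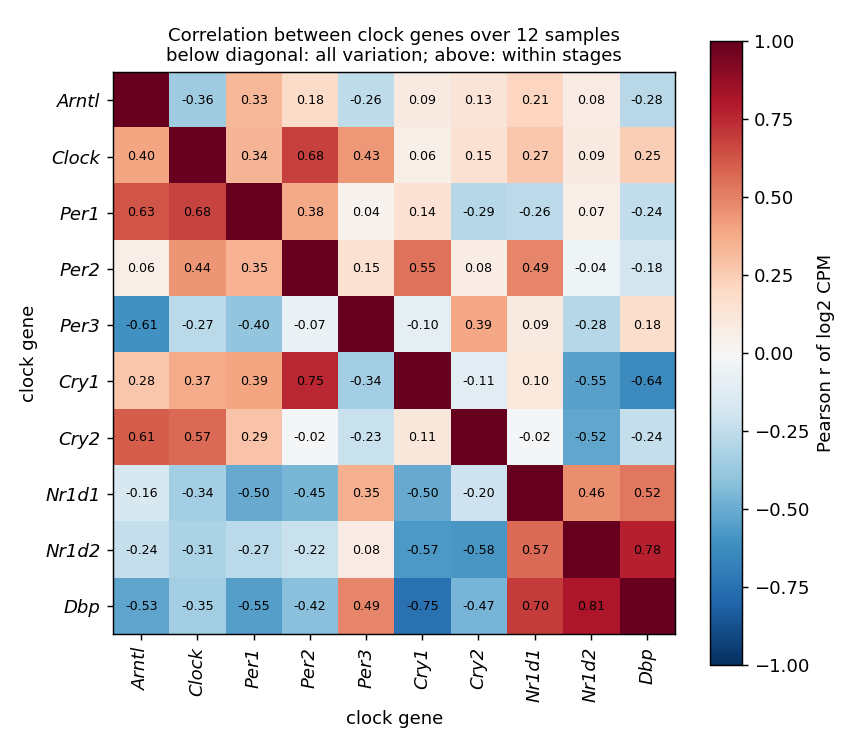
Pearson's r of log2 CPM between pairs of clock genes over the 12 samples, from all variation (below the diagonal) and from deviations from stage means (above it). Nr1d1, Nr1d2 and Dbp form a positive block (0.57 to 0.81 below the diagonal). Their pairs with Arntl, Clock, Per1, Cry1 and Cry2 are negative below the diagonal (-0.16 to -0.75). Above the diagonal some of these pairs are positive, among them Clock with Nr1d1, Nr1d2 and Dbp. Of the 45 pairs below the diagonal, 0 had an adjusted permutation p under 0.05.

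Among other genes tested, those whose values followed Dbp most closely were Maco1 (r = 0.893 over 12 samples), Trp53i11 (0.892), Lilrb4a (0.860), Colgalt2 (0.857) and Lrrc8b (0.854). The closest to Arntl were Scara3 (0.908), Ly75 (0.893), Ap3m2 (0.884), E130311K13Rik (0.882) and Nos3 (0.870). These are the highest of 12043 values each and are given as a description.

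A list of 25 other genes of the clock, of which 23 were tested, held 3 that differed over the cycle (edgeR F test, adjusted p under 0.05; background 23.2%). They were Rora, Bhlhe40 and Usp2. In diestrus against estrus 1 gene was higher and 3 were lower (background 9.72% and 13.0%), and in estrus against proestrus 1 was higher and none lower (9.67% and 7.46%). The median log2 difference of the list in these comparisons was -0.03 and 0.21, against 0.00 and 0.02 over all tested genes. Npas2, a stand-in for Clock, the Dbp relatives Tef and Hlf, the D-box repressor Nfil3 and Bhlhe41 were not called.

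Rora encodes the activator that competes with the NR1D receptors for ROR response elements, the element shown above in the Arntl window. It measured 23.4, 17.2 and 23.3 CPM in proestrus, 59.4, 55.5 and 55.4 in estrus, 42.5, 30.9 and 49.5 in metestrus and 36.9, 37.1 and 31.1 in diestrus. Proestrus lay below and estrus above all other samples. Rora rose from proestrus to estrus by a log2 difference of 1.41 ± 0.19 (edgeR adjusted p = 0.000547) and was lower in diestrus than in estrus by -0.69 ± 0.18 (edgeR adjusted p = 0.0140). Rora and Nr1d1, whose products are known to act in opposite directions on Arntl, were thus both highest in estrus, as was the macrophage marker sum given above, whose part was not tested.

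Bhlhe40 (DEC1), a repressor that binds E-boxes and is known to respond to hypoxia and hormones as well as to the clock, measured 66.7, 73.9 and 71.0 CPM in proestrus, 117, 142 and 126 in estrus, 48.2, 19.6 and 5.96 in metestrus and 14.0, 6.43 and 19.2 in diestrus. It was lower in diestrus than in estrus by a log2 difference of -3.29 ± 0.47 (edgeR adjusted p = 0.000373), with no overlap. Usp2, a deubiquitinase of clock proteins that is itself under clock control, had the reverse course. Its means were 19.1 ± 7.80 CPM in proestrus, 24.0 ± 2.70 in estrus, 61.0 ± 16.5 in metestrus and 68.2 ± 18.6 in diestrus. Proestrus was below diestrus by a log2 difference of -1.84 ± 0.29 (edgeR adjusted p = 0.00173), and every proestrus and estrus sample was below every metestrus and diestrus sample. The epithelial marker sum given above divided the samples at the same place, in the same direction as Bhlhe40 and the opposite direction to Usp2, and its part in their values was not tested. Of the kinases that mark PER proteins for breakdown, Csnk1e was lower in diestrus than in estrus by a log2 difference of -0.76 ± 0.19 (edgeR adjusted p = 0.0116), with no call over the 4 stages (adjusted p = 0.0526).

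In a list of 23 clock output genes, 15 were tested and 6 differed over the cycle (edgeR F test; background 23.2%): Wee1, Usp2, Klf9, Cdkn1a, Mtss1 and Tfrc. In diestrus against estrus 2 were higher and 5 lower (background 9.72% and 13.0%), with a median log2 difference of -0.33 against 0.00 over all tested genes. They did not share 1 course. Wee1, a brake on entry into mitosis, was highest in diestrus, at 15.1 ± 3.72 CPM against 5.63 ± 1.12 in estrus (log2 difference 1.42 ± 0.32; edgeR adjusted p = 0.00690). Cdkn1a, the cell cycle inhibitor p21, was highest in estrus, at 57.2 ± 10.5 CPM against 14.3 ± 2.38 in diestrus (log2 difference -2.00 ± 0.21; edgeR adjusted p = 4.44e-05). Klf9, a transcription factor known to respond to steroid and thyroid hormones, rose from 136 ± 15.9 CPM in proestrus to 347 ± 37.7 in estrus (log2 difference 1.35 ± 0.21; edgeR adjusted p = 0.00133). Mtss1 and Tfrc, the transferrin receptor gene, were lower in diestrus than in estrus, by log2 differences of -0.88 ± 0.23 and -1.34 ± 0.31 (edgeR adjusted p = 0.0148 and 0.00777). The genes of this list have other regulators besides the clock, and Usp2 belongs to both lists.

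**Figure D5:**
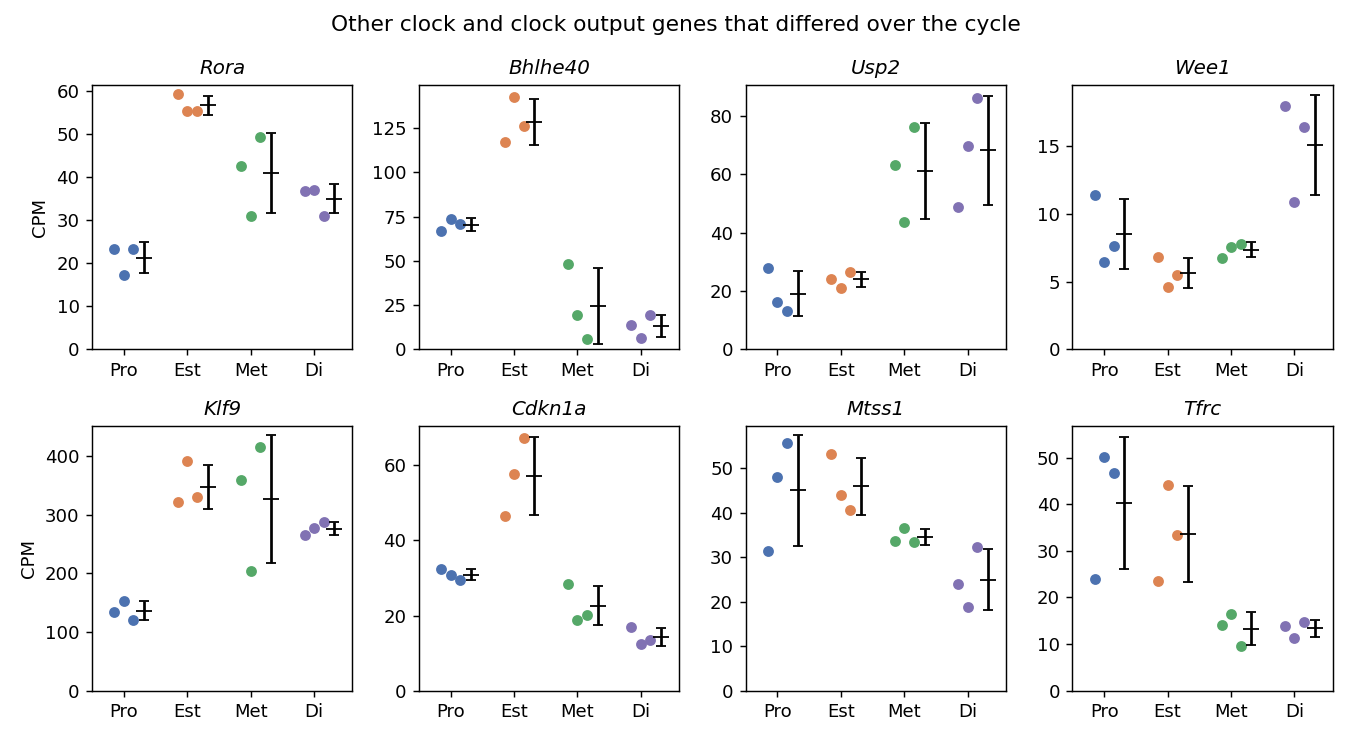
CPM of the 8 genes of the other clock and clock output lists that differed over the cycle, in each of the 12 samples (points) with the mean and SD of each stage (bars; stage names as above). Bhlhe40 and Cdkn1a peak in estrus, Usp2 is high in metestrus and diestrus, and Wee1 is highest in diestrus.

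Glucocorticoids reset clocks in peripheral organs and induce Per1 directly, so a list of 15 glucocorticoid-responsive genes, which includes Per1, was set beside the members. Of its 14 tested genes, 8 differed over the cycle (edgeR F test; background 23.2%), with 5 higher and none lower in estrus than in proestrus (background 9.67% and 7.46%). Klf9 and Cdkn1a are on this list too. Metestrus replicate 7 was the highest of the 12 samples in 6 of the 14 and in 3 of the 9 tested clock genes, namely Arntl, Clock and Per1, against 11.7% of all tested genes. Per1 is counted in both, and 4 of the 14, namely Sgk1, Mt1, Cdkn1a and Angptl4, were below their median there. In that library Tsc22d3 stood at 163 CPM and in no other above 60.8, Zbtb16 at 56.6, Errfi1 at 124 and Klf15 at 39.3. The D-box repressor Nfil3 stood at 57.2 CPM there and at no more than 23.2 elsewhere. Without this library, diestrus against estrus called 5 members in place of 2, namely Clock, Per2, Cry1, Nr1d1 and Dbp, and the calls of Nr1d1 and Dbp did not need it. The part of this library's other differences in its clock gene values was not tested.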

How the data were processed

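Uteri were profiled in 12 libraries, 3 per stage. The authors deposited 1 table per library of estimated counts per transcript, TPM values (scaled by effective length, per the file headers) and effective lengths in bases. The submitters' processing notes name FastQC, kallisto and DESeq2, with no role; transcript set, build and strand use are not given in the sources used here. Transcripts were matched without version to GENCODE M21 (GRCm38), and 0.619% to 0.774% of counts did not match and were left out. Estimated counts were summed per gene and rounded. Genes passing filterByExpr were fitted in edgeR 4.0.16 (R 4.3.3) with 1 coefficient per stage, TMM scaling and quasi-likelihood tests, adjusted over all tested genes (threshold 0.05). Log2 CPM used a prior count of 2. The procedure was tested on simulated data. No pair of replicates agreed within sampling noise. Where samples of a stage did not come from separate mice, p-values measure only the spread between samples.

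All 10 members are named, with Thra, listed clock and output genes called in the F test, and the 5 genes closest to Dbp and to Arntl; Csnk1e, Sphk2 and single genes of metestrus replicate 7 were chosen after their values were seen. Members and lists were chosen with earlier results of these data known. Alternatives were library totals, DESeq2 1.42.0, no filter, counts scaled from TPM, single stage pairs, a replicate block and each sample left out.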

Additional observations from a re-analysis of the deposited data

How the results depend on the processing

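The log2 differences of Nr1d1 (estrus against proestrus, diestrus against estrus) and Dbp (diestrus against estrus) kept their direction under each alternative tried. The number of members that differed over the 4 stages was 1, and became 2 with no filter on low counts, 0 with counts scaled from TPM (where only 4 members were tested) and 0 to 2 with 1 library left out. In estrus against proestrus the 1 member called became 2 with no filter and 0 to 2 with 1 library left out. In diestrus against estrus the 2 members called became 1 with counts scaled from TPM, 4 in the fit to these 6 samples and 0 to 5 with 1 library left out. The contrast of metestrus plus diestrus against proestrus plus estrus, chosen after seeing the data, called 0 members, 1 with no filter and 0 to 2 with 1 library left out. The other 4 contrasts called 0 members under each of 17 alternatives. Correlations past the threshold numbered 0, and 0 to 2 with 1 library left out. Estrus and diestrus share replicate numbers, but same-numbered samples did not deviate together (r from -0.0433 to 0.0131), so the numbers were not taken as pairs. With a replicate block over all 12 samples, 0 members were called in the F test (Nr1d1, adjusted p = 0.0714) and 0 in estrus against proestrus, and 3 (Cry1, Nr1d1 and Dbp) were called in diestrus against estrus, as with a replicate block over the 6 samples. Library depth limits Per2, Cry1 and Arntl most, where libraries held between 1 and 22 counts.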
